A study of Homo sapiens with 4 samples.

Results

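The caspases and apoptosome genes CASP2, CASP6, CASP8, CASP9, CASP10, APAF1, CYCS and XIAP were followed in cisplatin-sensitive and cisplatin-resistant cells of head and neck squamous cell carcinoma (HNSCC). Every probe that the array files assign to 1 of these symbols was taken, which gave 16 of 58183 probes and 8 of 43305 genes. The parental lines HN4 and HN30, which are established cell lines, grew in DMEM with serum, and their labels name no drug. Their resistant counterparts HN4/DDP and HN30/DDP (HN4_CR and HN30_CR in the labels) had been selected with rising doses of cisplatin, which crosslinks DNA through platinum, and were held at 20 μM of it. The labels add an exposure of 48 h. Each condition was measured on 1 array, so a resistant line and its parental line could not be compared by a test, and the acquired resistance and the presence of the drug cannot be told apart. Each resistant line is 1 derivation from 1 parental line.

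Caspases are proteases that dismantle the cell during apoptosis. Initiator caspases are activated on large complexes and then cut the executioner caspases. CASP8 and CASP10 are recruited to death receptors, and CASP2 to the PIDDosome, a complex built after DNA damage. In the mitochondrial route, which DNA-damaging drugs such as cisplatin engage, cytochrome c (CYCS) leaves the mitochondria and binds APAF1, which assembles into the apoptosome and activates CASP9. CASP6 is an executioner that cuts nuclear lamins, and XIAP binds and inhibits some of the caspases, among them CASP9.

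The probes are oligonucleotides of 60 bases fixed to the array. The probe with the lowest position in the transcript is shown here, to identify what was measured, for the initiators CASP8, CASP10 and CASP2 and the executioner CASP6. They were read from the scanner files, with positions on hg19 as these files give them, and are written in lower case throughout because no part of them is singled out. The CASP8 probe lies on chr2:202136256-202136315 (+ strand), the CASP10 probe on chr2:202057711-202057770 (+), the CASP2 probe on chr7:142989731-142989790 (+) and the CASP6 probe on chr4:110610645-110610704 (- strand).
CASP8: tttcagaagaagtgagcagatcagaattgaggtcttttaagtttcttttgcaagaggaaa
CASP10: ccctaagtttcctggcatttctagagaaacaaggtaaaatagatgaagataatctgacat
CASP2: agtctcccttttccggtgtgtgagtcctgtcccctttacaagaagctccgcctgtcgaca
CASP6: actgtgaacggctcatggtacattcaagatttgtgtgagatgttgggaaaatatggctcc

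CYCS had the widest range of the 8 genes over the arrays, and its promoter is shown for that reason. The 250 bases before its transcription start lie on chr7:25125261-25125510 (- strand, GRCh38.p14) and were taken from RefSeq. Capitals mark matches, on either strand, to TGACG and TGGCG, the letters that the study treats as CREB-type motifs, and to GCATGCGC, the inner letters of the binding site of the respiratory regulator NRF1.
CYCS: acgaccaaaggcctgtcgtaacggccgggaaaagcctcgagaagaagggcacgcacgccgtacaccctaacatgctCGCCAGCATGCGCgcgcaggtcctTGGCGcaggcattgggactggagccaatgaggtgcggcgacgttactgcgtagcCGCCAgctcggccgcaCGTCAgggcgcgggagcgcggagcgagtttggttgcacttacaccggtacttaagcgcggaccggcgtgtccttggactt

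TGACG began 80 bases before the start, TGGCG began 174, 150 and 96 bases before it, and GCATGCGC began 169 bases before it, next to the farthest TGGCG. Over all 35116 RefSeq promoters of this length, 21.2% held TGACG, 34.1% held TGGCG and 2.63% held GCATGCGC. The palindrome TGACGTCA, which contains TGACG, was held by 1.65% of them. Of the 8 genes, 7 were matched to 13 promoters, and CASP10 was not. TGACG was present in 4 of the 13 promoters (of CYCS, CASP9 and XIAP), TGGCG in 4 (of CYCS, APAF1, CASP9 and XIAP), GCATGCGC in 1 (CYCS) and TGACGTCA in 0. These matches describe letters in the window and are no evidence of binding.

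Levels are log2 signals of a probe, set against the 75th percentile of its array, so a level above 0 belongs to the brightest probes of the array. Differences are resistant minus parental on this log2 scale. The scanner SD is the error that the image software gives to a spot, carried to the difference, and it contains no spread between cultures. Of the 16 probes, 15 were well above background on all 4 arrays. For each gene the probe brightest on average over the arrays stands for the gene, and these 8 probes were well above background on all arrays. The RNA came from whole cultures, in which fewer expressing cells and less RNA per cell cannot be told apart.

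Lower means a difference below -1 with the parental array well above background, and higher means a difference above 1 with the resistant array well above background. In HN4/DDP, 1 of the 8 genes was lower (CASP8) and 0 were higher. By the same rule, 9.36% of 24798 genes were lower and 9.79% of 25525 were higher in that line. In HN30/DDP, CYCS and CASP6 were lower and 0 were higher, against 15.7% of 23950 genes lower and 20.3% of 27625 higher. With 1 and 2 lower genes of 8, the shares were 12.5% and 25%, near the shares over all genes. No gene of the 8 was past the threshold in both lines, where 2.23% of 22858 genes were lower and 4.72% of 24421 higher. By the mean of its probes CYCS was, at -1.03 and -2.08.

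**Figure D1:**
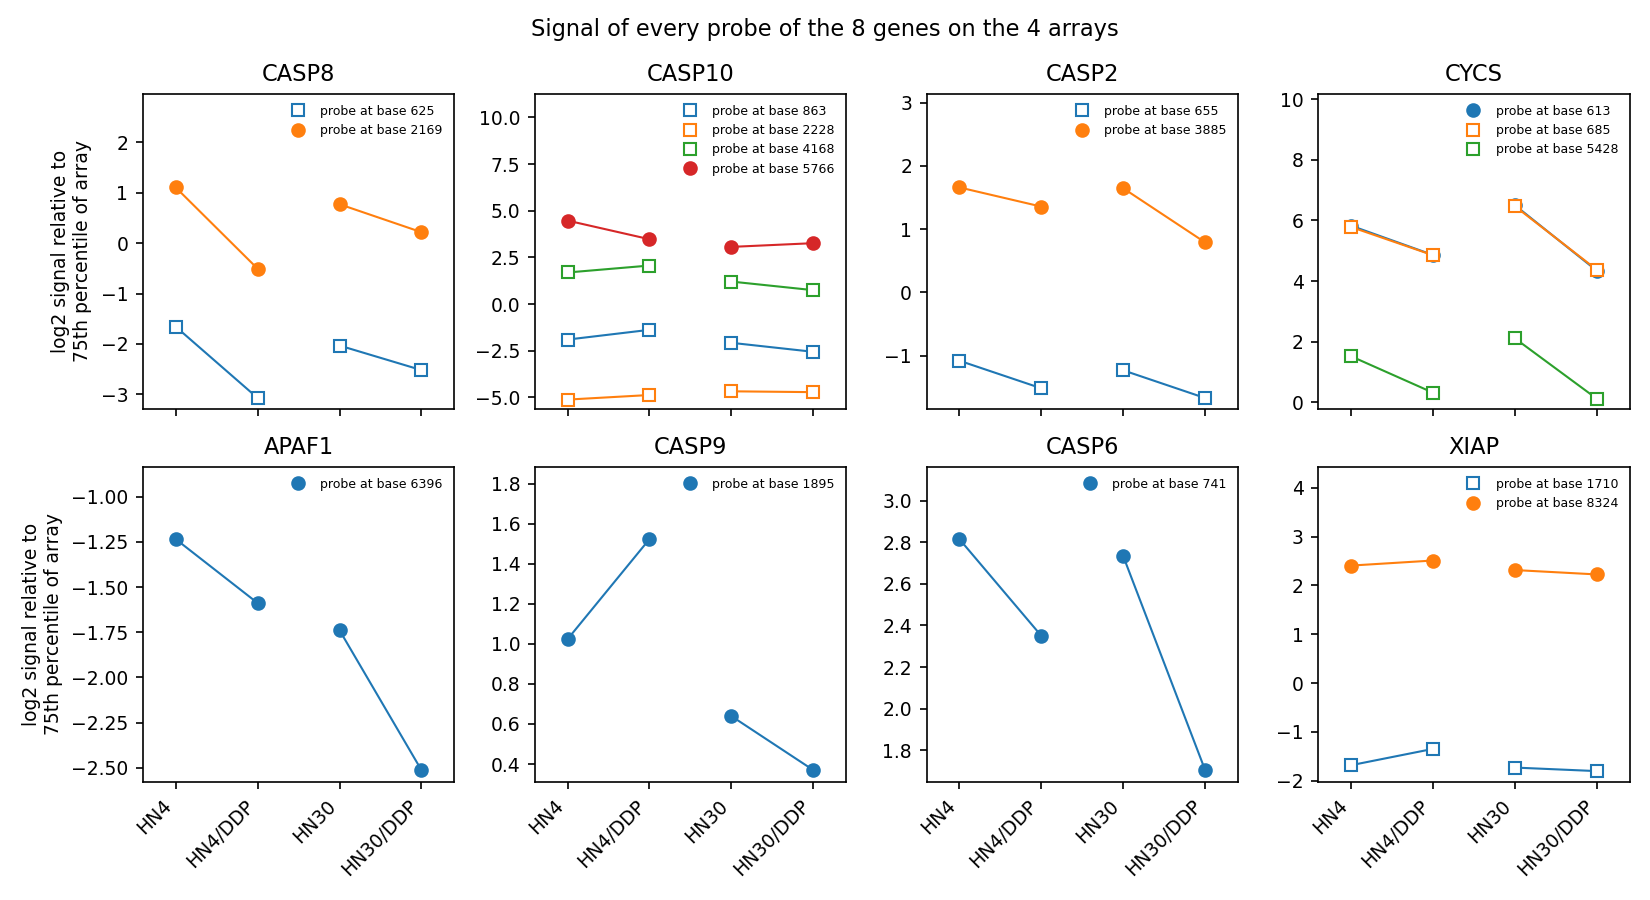
Log2 signal relative to the 75th percentile of the array (vertical axis, scaled separately for each gene) of all 16 probes on the 4 arrays, with filled circles for the representative probe and open squares for the others, and lines joining a parental array to its resistant array. All 3 CYCS probes and both CASP8 probes slope down in both lines, while the CASP10 probes slope in different directions.

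CASP8, the main initiator caspase of the death receptor route, was lower in HN4/DDP and lay below its parental level, short of the threshold, in HN30/DDP. Its brighter probe (chr2:202151838-202151897) had log2 levels of 1.10 in HN4 and -0.51 in HN4/DDP, and of 0.77 in HN30 and 0.22 in HN30/DDP. HN4/DDP was thus the lowest of the arrays and HN4 the highest. The difference was -1.61 in HN4/DDP (scanner SD 0.20, 3.06-fold lower) and -0.55 in HN30/DDP (0.20, 1.47-fold lower). The probe shown above gave the same order of arrays, with differences of -1.42 (0.22) and -0.49 (0.22). Of 23470 genes well above background on both HN4 arrays, 2.18% had a lower difference than CASP8. In the HN30 pair, 27.3% of 23245 genes did.

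CASP10, the second death receptor initiator, lies next to CASP8 on the chromosome and gave no single direction. Its brightest probe (chr2:202086244-202086303) had levels of 4.47 and 3.47 in HN4 and HN4/DDP, and of 3.06 and 3.26 in HN30 and HN30/DDP. By this probe HN4 stood above the other arrays, and the differences were -0.998 (0.20) in HN4/DDP and 0.20 (0.20) in HN30/DDP. The probe at chr2:202084646-202084705 had levels of 1.69, 2.06, 1.21 and 0.75 in the same order of arrays. It gave 0.37 (0.20) and -0.46 (0.20), the opposite sign in both lines. The probe shown above gave 0.52 (0.21) and -0.48 (0.22), on the side of the latter probe. The fourth probe (chr2:202094051-202094110) was not well above background on the HN4 and HN30 arrays, and its differences were 0.25 (0.51) and -0.05 (0.45). The files assign the brightest probe and the probe at chr2:202084646-202084705 to NM_032977, and the other probes to NM_032974. The opposite signs thus occur within the same transcript, and CASP10 has no single value over its probes.

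CASP2, the caspase of the PIDDosome, lay below its parental level by both probes in both lines without passing the threshold. The brighter probe (chr7:143004450-143004509) had levels of 1.66 in HN4 and 1.36 in HN4/DDP, and of 1.65 in HN30 and 0.79 in HN30/DDP. The parental arrays were nearly level with each other and HN30/DDP was the lowest. Its differences were -0.30 (0.20) and -0.86 (0.20, 1.81-fold lower). The probe shown above gave -0.44 (0.21) in each line.

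CYCS, which encodes cytochrome c, the electron carrier that starts apoptosome assembly once it reaches the cytosol, had the largest difference of the 8 genes in HN30/DDP. Its brightest probe (chr7:25163135-25163189) had levels of 5.82 and 4.86 in HN4 and HN4/DDP, and of 6.50 and 4.34 in HN30 and HN30/DDP, from signals of 28004, 14390, 40163 and 9684. Both resistant arrays lay below both parental arrays. The difference was -0.97 (0.20, 1.95-fold lower) in HN4/DDP and -2.16 (0.20, 4.48-fold lower) in HN30/DDP.

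The other CYCS probes gave the same order of arrays. The probe at chr7:25158264-25158296 gave -0.93 and -2.10, and the probe at chr7:25158320-25158379 gave -1.20 and -1.99, each with a scanner SD of 0.20. On the genome, the first of the 3 probes covers 55 bases and the second 33, so part of each lies beyond the stated interval. CYCS has processed pseudogenes, whose transcripts could bind the same probes, and its level is uncertain to that extent. In the HN30 pair 1.81% of 23245 genes had a lower difference than CYCS, and in the HN4 pair 7.07% of 23470 did. At a log2 difference of 2, CYCS in HN30/DDP was the only 1 of the 8 genes past the threshold, beside 3.25% of genes lower and 8.58% higher by that much, and with quantile normalization it stood at -1.65, short of that threshold. In HN4/DDP 0 of the 8 genes were past it, beside 2.38% lower and 3.8% higher.

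APAF1, the scaffold of the apoptosome, was dim but well above background on every array, with signals of 210, 165, 133 and 84.1. Its probe (chr12:99128417-99128476) had levels of -1.23 in HN4 and -1.59 in HN4/DDP, and of -1.74 in HN30 and -2.51 in HN30/DDP. Each resistant array lay below its parental array, and both HN30 arrays lay below both HN4 arrays. The differences were -0.35 (0.21) and -0.77 (0.21, 1.71-fold lower), short of the threshold.

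CASP9, the initiator that the apoptosome activates, differed in sign between the lines. Its probe (chr1:15818979-15819038, - strand) had levels of 1.02 and 1.52 in HN4 and HN4/DDP, and of 0.64 and 0.37 in HN30 and HN30/DDP. HN4/DDP was the highest array and HN30/DDP the lowest. The differences were 0.50 (0.20, 1.41-fold higher) and -0.27 (0.20, 1.21-fold lower). Of the 3 core genes of the apoptosome, CYCS and APAF1 thus lay below the parental array in both resistant lines and CASP9 in HN30/DDP only, and the difference between the lines has no test here.

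CASP6, an executioner caspase that cleaves lamin A, had levels of 2.82 in HN4 and 2.35 in HN4/DDP, and of 2.73 in HN30 and 1.70 in HN30/DDP by the probe shown above. The parental arrays were close to each other, and HN30/DDP was the lowest. The differences were -0.46 (0.20, 1.38-fold lower) and -1.03 (0.20, 2.04-fold lower), the latter just past the threshold. CASP6 crossed back to -0.98 with another background correction and to -0.74 with quantile normalization.

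XIAP, an inhibitor of CASP9, stayed within 0.29 on the log2 scale over the 4 arrays by its brighter probe. That probe (chrX:123047703-123047762) had levels of 2.41 and 2.51 in HN4 and HN4/DDP, and of 2.31 and 2.22 in HN30 and HN30/DDP, and differences of 0.10 (0.20) and -0.09 (0.20). Both were smaller than the scanner SD. The dimmer probe (chrX:123041089-123041148) gave 0.33 (0.21) and -0.07 (0.21).

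Over the 8 genes, the median difference was -0.41 in HN4/DDP, with 6 genes below 0, and -0.66 in HN30/DDP, with 7 below 0. The median over all genes was -0.093 and -0.067. Of all genes, 57.9% lay below 0 in HN4/DDP and 53.8% in HN30/DDP, so most genes below 0 is also the pattern over all genes. The 10731 genes that were well above background everywhere and on average brighter than the 75th percentile had medians of -0.080 and -0.34, and 7 of the 8 genes are in that range of brightness. The plot of differences by gene shows both lines side by side.

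**Figure D2:**
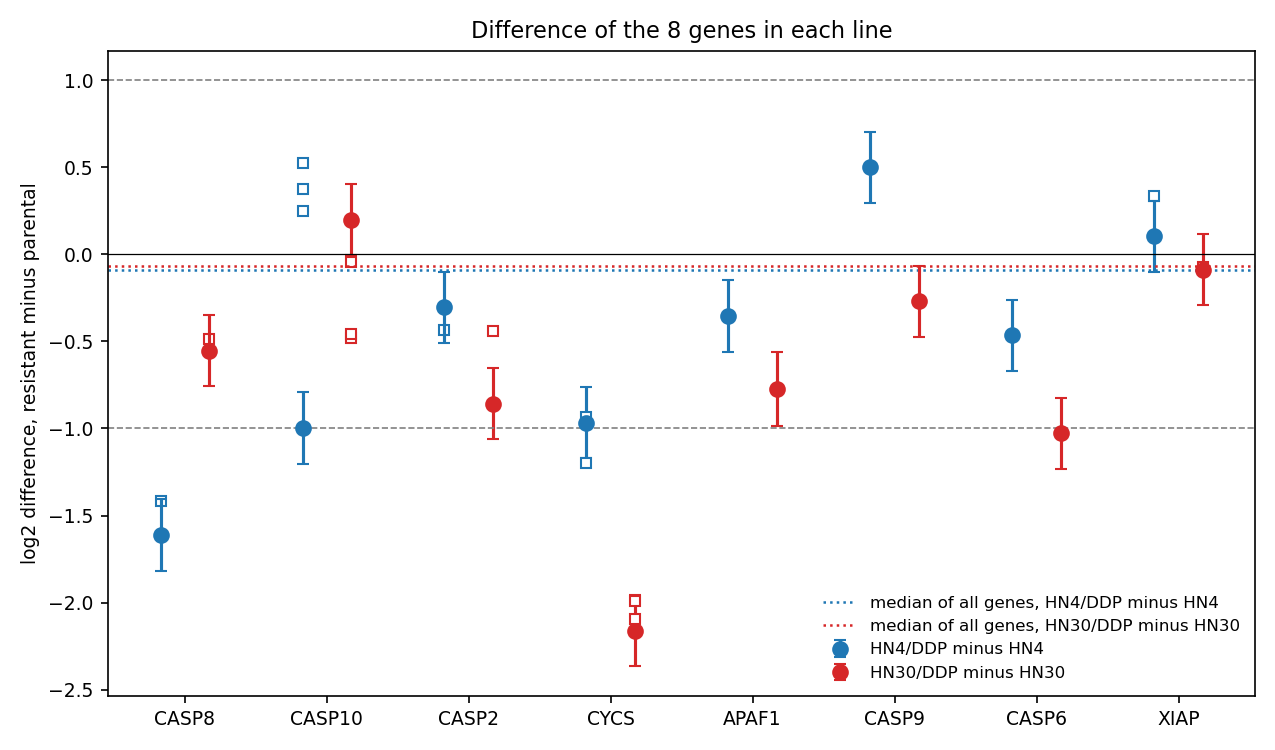
Log2 difference, resistant minus parental, of the representative probe (filled circles, with the scanner SD as error bars) and the other probes (open squares) of the 8 genes, in blue for HN4/DDP and red for HN30/DDP. Dashed lines mark differences of 1 and -1 and dotted lines the median of all genes. CASP8 in HN4/DDP (-1.61) and CYCS in HN30/DDP (-2.16) stand lowest, and CASP9 and XIAP lie on both sides of 0.

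The scaling of the arrays bears on the HN30 pair. After scaling by the 75th percentile, the median of the HN30/DDP array lay 0.40 above that of the HN30 array, while in the HN4 pair the medians were -0.050 apart. When arrays were scaled by their medians instead, the median over all genes moved by -0.40 in the HN30 pair. The share of higher genes among those past the threshold then changed from 59.9% (5605 higher, 3756 lower) to 37.4% (3925 higher, 6583 lower), and it was 46.6% with the normexp background correction. Relative to the median of all genes, the median of the 8 genes was -0.60, a value that scaling by another constant cannot change, and it was -0.41 with normexp and -0.44 with quantile normalization. CASP2 and APAF1 joined CYCS and CASP6 past the threshold with median scaling, at -1.26 and -1.17. Quantile normalization and the deposited processed values put CYCS and APAF1 past it and left CASP6 short of it. XIAP in HN30/DDP ranged from -0.49 to 0.21 over the scalings and CASP10 from -0.20 to 0.61, so neither has a settled direction there. The plot of processing settings shows these values.

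**Figure D3:**
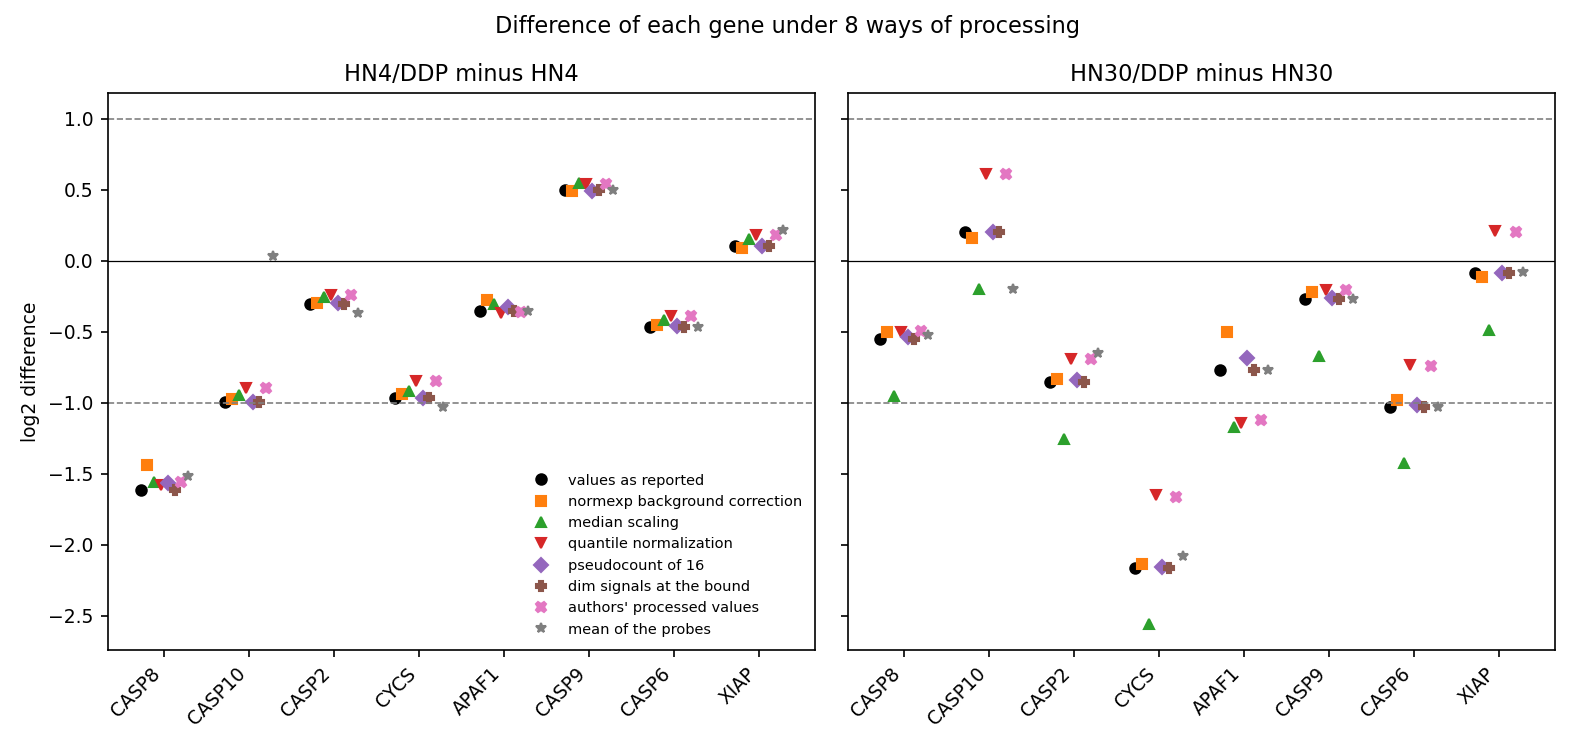
Log2 difference of each of the 8 genes (resistant minus parental) under 8 ways of processing the arrays, for HN4/DDP on the left and HN30/DDP on the right. Values in HN4/DDP lie close together apart from CASP10, and those in HN30/DDP spread widely, with CYCS between -2.56 and -1.65.

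The only contrast with replicates set both resistant arrays against both parental arrays in limma, blocked by cell line, with 1 residual degree of freedom. No gene passed an adjusted p of 0.05 (0% of 29521 called; smallest adjusted p 0.382), and 2537 genes (8.59%) had an unadjusted p below 0.05. Among the 8 genes, CYCS had the lowest p in limma, with a difference of -1.56 (SE 0.415), an unadjusted p of 0.0164 and an adjusted p of 0.499. CASP8 followed with -1.08 (SE 0.466, limma adjusted p 0.623) and CASP6 with -0.75 (SE 0.420, adjusted p 0.693). APAF1 and CASP2 stood at -0.56 (limma adjusted p 0.723) and -0.58 (0.765). CASP10, CASP9 and XIAP had differences of -0.40, 0.12 and 0.0068, each smaller than its SE. Each difference pointed in the same direction in 2 of 2 lines for CASP8, CASP2, CYCS, APAF1 and CASP6, and in 1 of 2 for the other three. With this number of arrays a missed threshold does not show that a gene was unchanged.

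The parental lines differed from each other most in CASP10 and CYCS. HN30 minus HN4 was -1.41 (0.20, 2.65-fold lower in HN30) for the brightest CASP10 probe, although the other CASP10 probes well above background in both lines gave -0.49 and -0.17. CYCS was 0.67 (0.20, 1.59-fold) higher in HN30 by its brightest probe, and 0.68 and 0.59 higher by the others. APAF1, CASP9 and CASP8 had smaller differences, of -0.50 (scanner SD 0.21), -0.38 (0.20) and -0.33 (0.20). CASP2, CASP6 and XIAP differed by less than the scanner SD. Between the resistant lines, HN30/DDP minus HN4/DDP was -1.15 for CASP9, -0.92 for APAF1 and 0.72 for CASP8. For CASP10 it was -0.21 by the brightest probe and -1.32 and -1.18 by the other probes well above background on all arrays. For CYCS the parental order turned around, with -0.52 for HN30/DDP minus HN4/DDP by the brightest probe and -0.48 and -0.20 by the others, the last within its scanner SD of 0.20. These values come from 1 array each and have no test. The difference between the resistant lines was not run under other ways of processing.

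Other genes of the same pathways were taken as 7 lists with 44 genes on the array, 42 of them well above background on all arrays. Past the threshold, 5 were higher and 4 lower in HN4/DDP, and 9 were higher and 12 lower in HN30/DDP. Their median differences were -0.0035 and -0.29. In HN30/DDP the counts were 5 higher and 19 lower with median scaling and 9 higher and 8 lower with quantile normalization. Values below are for HN4/DDP first and HN30/DDP second, with scanner SDs of about 0.20 unless given. Each list is described by its count and median, beside the shares over all genes given above.

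The death receptor list of 12 genes had 3 higher and 1 lower in HN4/DDP and 5 higher and 1 lower in HN30/DDP, with medians of 0.64 and 0.60. With median scaling, 3 were higher and 4 lower in HN30/DDP, with a median of 0.20. With quantile normalization, 6 were higher and 1 lower there, with a median of 1.10. Of the 4 TRAIL receptor genes, 3 were higher in both lines. These were TNFRSF10B (1.29 and 1.03), a death receptor, and TNFRSF10C (2.43 and 1.68) and TNFRSF10D (1.75 and 1.19), decoy receptors for the same ligand. With median scaling, TNFRSF10B and TNFRSF10D in HN30/DDP stood at 0.63 and 0.79, short of the threshold, and kept their sign. The other death receptor for TRAIL, TNFRSF10A, had 0.93 and -0.86 and passed the threshold in neither line, although it stood at -1.26 in HN30/DDP with median scaling. The ligand TNFSF10 (TRAIL) had -1.24 and 1.96, and its 3 probes ranged from -1.59 to 2.08 in HN30/DDP, so its value there is uncertain. By the mean of its probes it stood at -0.89 and 0.81, short of the threshold in both lines. FAS, another death receptor, had 0.64 and -1.44, with all 3 probes on the same side in each line.

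In the list of PIDDosome and caspase recruitment partners, 1 of 4 genes was higher in HN4/DDP and 2 in HN30/DDP, with medians of 0.60 and 0.48. The medians were 0.11 and -0.026 with the mean of the probes, and 1 gene was higher in HN30/DDP with that setting, with normexp and with median scaling, where 1 was also lower and the median was 0.078. PIDD1, the scaffold that recruits CASP2, was higher in both lines (1.40 and 1.14, the latter 0.74 with median scaling), from levels of 3.74 in HN4 and 4.03 in HN30 to 5.13 and 5.17. CRADD, the adaptor between PIDD1 and CASP2, had -0.16 and -0.65 (-1.05 with median scaling). CARD8 had 0.89 and 1.54 (0.95 with normexp) by its brightest probe and -0.99 and -1.14 by another, so its direction is not settled. Within this complex, then, PIDD1 was higher and CASP2 lay below 0 in both lines. CRADD lay below 0 as well, but in HN4/DDP by less than its scanner SD.

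Of the 6 regulators of the apoptosome, 2 were lower in HN4/DDP and 4 in HN30/DDP, with 0 higher and medians of -0.66 and -1.23. AVEN, an inhibitor that binds APAF1, had -0.62 (0.06) and -2.48 (0.07). UACA, an APAF1-binding protein, had -1.60 and -0.38. All 6 genes lay below 0 in both lines by their brightest probes. Over all genes, 57.9% did so in HN4/DDP and 53.8% in HN30/DDP. HSPA4 in HN4/DDP, at -0.14, was within its scanner SD, and 1 probe of ANP32A gave 1.12 in HN30/DDP. In HN30/DDP 5 were lower with median scaling (median -1.63) and 3 with quantile normalization (median -0.96).

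Among caspase substrates, 1 of 5 was lower in HN4/DDP and 4 were lower in HN30/DDP, with medians of -0.29 and -1.08. With the mean of the probes 2 were lower in HN30/DDP, and the medians were -0.088 and -0.86. LMNB1, which encodes the lamina protein lamin B1, was the single gene of the lists that was lower in both lines (-1.41 and -3.03), from 3.51 to 2.10 and from 3.96 to 0.93. DFFA, the inhibitor of the caspase-activated DNase, had 0.49 (0.07) and -0.07 (0.06), and its sign in HN30/DDP changed with the scaling.

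Of 5 further caspases, 0 passed the threshold in HN4/DDP, and CASP14 was higher in HN30/DDP. The medians of this list were 0.15 and 0.063, the latter -0.34 with median scaling and 0.58 with quantile normalization. CASP14, a caspase of keratinocyte differentiation, was dim, with -0.91 (0.36) and 1.78 (0.32), the latter 0.63 and short of the threshold with the normexp background correction. CASP5, an inflammatory caspase, had 0.21 and 0.06 (-0.34 with median scaling), the largest difference above 0 of this list in HN4/DDP. CASP1, which matures interleukin-1β, had 0.19 and -0.29, and its sign in HN30/DDP changed with the scaling.

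In the IAP family with CFLAR, 1 of 7 genes was higher in HN4/DDP, and 1 was higher and 2 were lower in HN30/DDP, with medians of -0.17 and -0.27. The HN4/DDP median was -0.027 with quantile normalization. In HN30/DDP the median was -0.036 with the mean of the probes and -0.67 with median scaling, where 0 were higher and 3 lower. CFLAR, the inhibitor of CASP8 at death receptors, had 1.77 in HN4/DDP, where CASP8 was lower. There 3 of its 4 probes gave 1.76 to 1.78 and the other gave -0.06. In HN30/DDP CFLAR had -0.27 by its brightest probe, 0.60 by another probe and 0.33 by the mean of its probes. With quantile normalization it stood at -0.19, within its scanner SD, so its direction there is not settled. BIRC5 (survivin), a gene of dividing cells, had -0.17 (0.07) and -1.94 (0.07), the former -0.027 with quantile normalization. BIRC3, an inhibitor of apoptosis that acts at receptor complexes, had -0.62 and -1.13, and BIRC7 (livin) had 0.42 (0.27) and 1.31 (0.24). In HN30/DDP BIRC3 stood at -0.76 with quantile normalization, and BIRC7 at 0.60 with normexp, 0.91 with median scaling and 0.94 with quantile normalization, all short of the threshold.

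Among XIAP antagonists and other mitochondrial death factors, 0 of 5 passed the threshold in HN4/DDP and 1 was lower in HN30/DDP, with medians of -0.0053 and -0.29. The HN4/DDP median was 0.045 with median scaling and 0.079 with quantile normalization. The HN30/DDP median was -0.69 with median scaling, where 2 were lower, and 0.14 with quantile normalization, where 0 were. ENDOG, a mitochondrial nuclease, had -0.17 and -1.22, the latter -0.975 with quantile normalization. DIABLO, which relieves caspases from XIAP, had -0.38 and -0.29 by its brightest probe, but the other probe gave 0.23 in HN4/DDP, and quantile normalization gave 0.23 in HN30/DDP, so its direction is not settled. XAF1, an XIAP-binding protein, had 0.50 (0.21) and 0.83 (0.27), the latter 0.30 with normexp and 0.41 with quantile normalization.

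**Figure D4:**
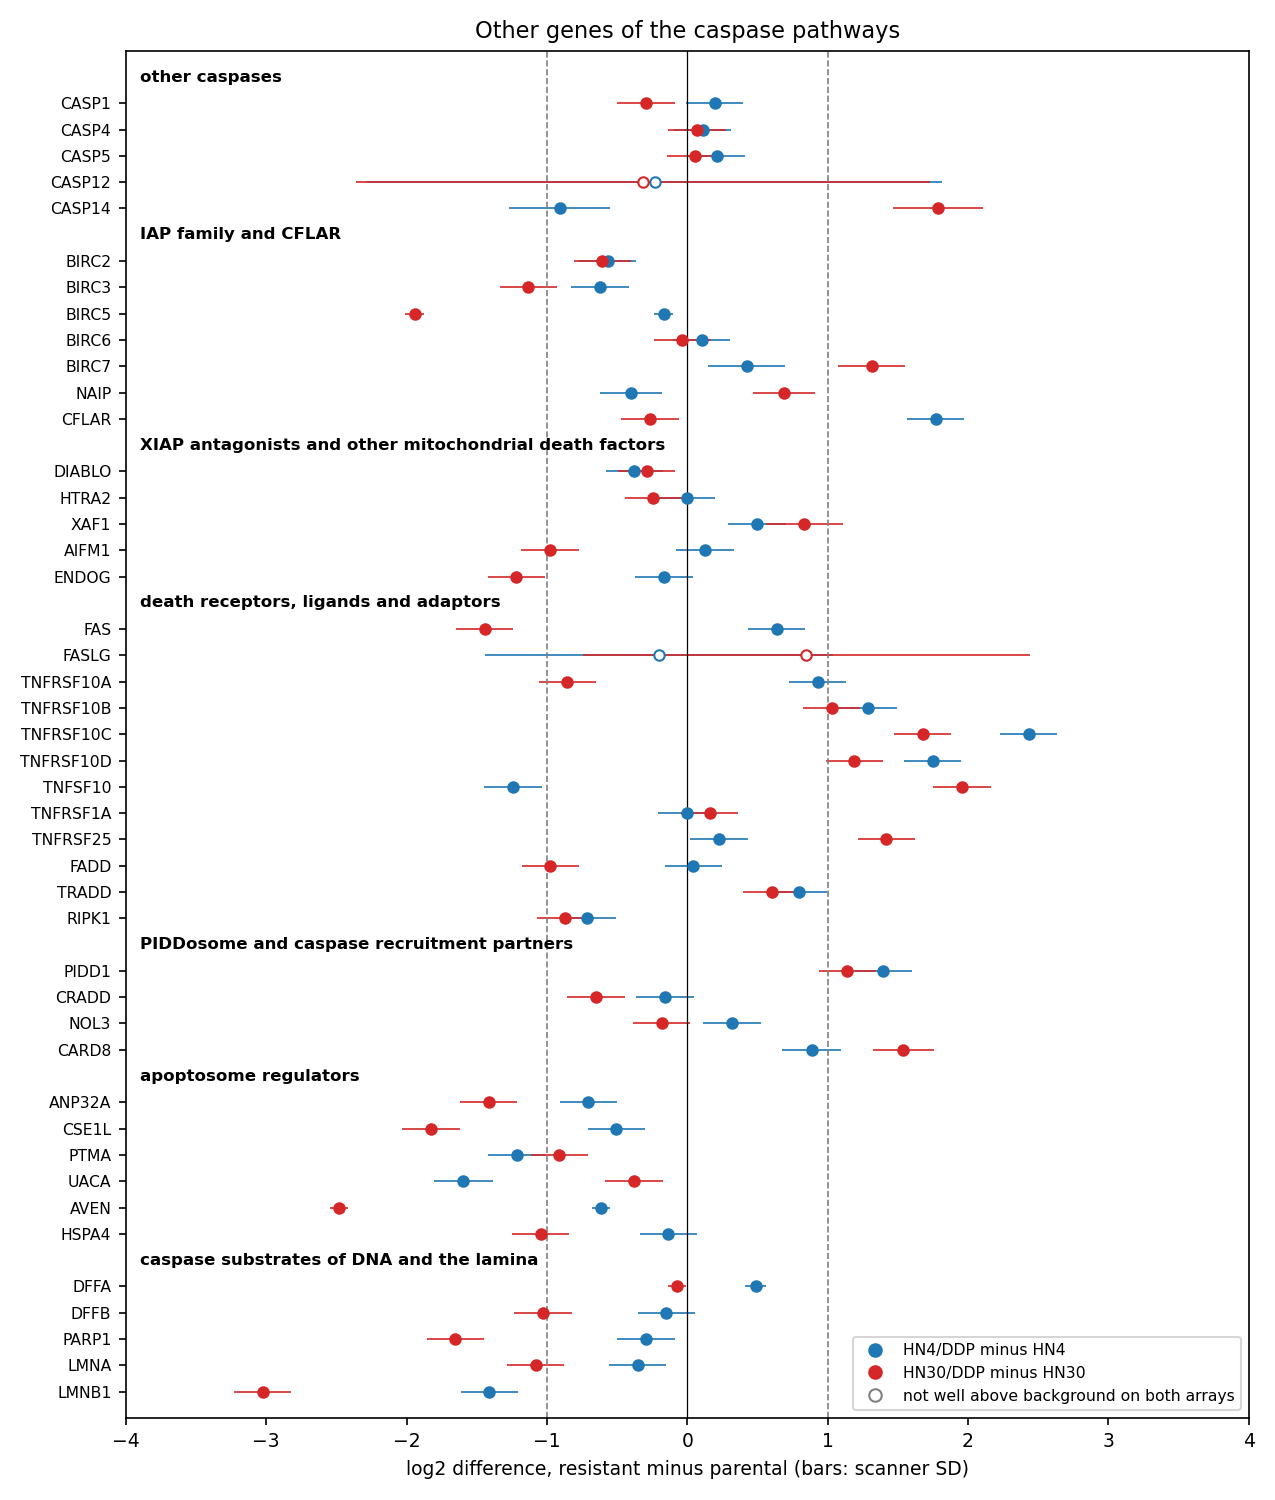
Log2 difference, resistant minus parental (horizontal axis), of the 44 other genes of the caspase pathways, grouped by list, with blue for HN4/DDP, red for HN30/DDP and bars for the scanner SD. Open circles mark genes not well above background on both arrays of the pair, and dashed lines mark -1 and 1. TNFRSF10B, TNFRSF10C, TNFRSF10D and PIDD1 lie to the right of 1 in both lines, and LMNB1 lies to the left of -1 in both.

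The genes most like CYCS over the arrays were found by the distance between the 4 centred log2 values. Candidates were the 13285 other genes that were well above background on all arrays and had an NM_ transcript assigned. The nearest 5 were POLE4 (distance 0.122), MPDU1 (0.127), TBXAS1 (0.144), POP1 (0.146) and STAG1 (0.146). Their differences ran from -1.12 to -0.80 in HN4/DDP and from -2.32 to -2.03 in HN30/DDP, beside -0.97 and -2.16 for CYCS. The likeness is a description over 4 arrays.

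The arrays were alike in their 75th percentiles, at 444 to 496 in signal. Their median signals ran from 25.6 on HN30 to 37.0 on HN30/DDP. Spots well above background made up 55.3% to 63.6%, the highest share on HN30/DDP. Of 8 squamous epithelial markers, all were well above background on 3 arrays and 7 on HN30/DDP, where KRT6A was not. Their summed signal, relative to the 75th percentile, was 154 there and 246 to 259 on the others. Single markers differed in both directions, with CDH1 at 3.27 on HN30 and 4.60 on HN30/DDP, and KRT5 at 2.79 on HN4 and -1.26 on HN4/DDP. Of 3 leukocyte markers, 2 were well above background on 3 arrays and 3 on HN30/DDP, and their summed signal was 39.6 there and 3.65 to 9.28 elsewhere. CD14 carried most of it (5.30 on HN30/DDP against 1.82 on HN30). Of 3 endothelial markers 2 to 3 were well above background (summed 0.215 to 0.311), and of 4 fibroblast markers 2 on every array (summed 0.206 to 1.01), with COL1A2 and DCN on none, and both of these sums were highest on HN4/DDP. HN30/DDP, the array with the lowest CYCS, CASP6, CASP2 and APAF1, thus had the lowest squamous sum, the highest CD14 and the largest share of bright spots, and their part in those differences was not tested.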

How the data were processed

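Total RNA of 4 cultures was labelled with Cy3 and hybridised to 1 one-colour Agilent human expression array each, all on 1 slide. The authors deposited scanner output with an intensity per spot, made by Feature Extraction 10.7.1.1, which subtracted the background and marked outlier spots and spots well above background, with probe positions on hg19. The authors also deposited a table of processed log2 values whose columns share the same quantiles, and no method is given for it in the sources used here. Pearson's r between its differences and the present ones was 0.996 (HN4) and 0.958 (HN30) over 58183 probes.

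Of 60901 spots that are not controls, 140 to 204 per array were outliers and were left out. From log2 of the processed intensity the 75th percentile of the array was subtracted, spots of a probe were averaged (median SD between spots 0.023 to 0.028), and the brightest probe on average stood for its gene. Of the genes, 10962 had more than 1 probe. No spot was saturated. The number of arrays limits the precision. The lines served as replicates in limma 3.58.1 under R 4.3.3 (eBayes, trended), with Benjamini-Hochberg adjustment over 29521 genes that 1 or more arrays measured well above background. Other steps used Python 3.11.15, numpy 2.4.6, pandas 2.3.3 and matplotlib 3.10.9. The procedures were tested on simulated data.

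Named were every member with all probes, genes of the lists past the threshold in both lines, the largest rise and fall per list and line, and the 5 genes nearest to the member with the widest range. ANP32A, HSPA4, TNFRSF10A and NAIP were named after their values were seen. The members and lists were chosen with earlier results of these data known. PIDD1 was listed under 2 names and counted once, and some genes of the lists are not reported here and were left out of their counts. The alternatives were normexp (offset 50), median and quantile scaling, a pseudocount of 16, dim signals set to the lowest signal well above background, the mean of a gene's probes, the deposited log2 values, a threshold of 2, genes well above background on both arrays only, and for limma no filter and no trend. They were also run for the parental difference, the named pathway genes and the lists, which was decided after seeing the data. The GCATGCGC letters were chosen after first matches were seen. RefSeq tables of GRCh38.p14 gave promoters. Exons and UTRs under the hg19 positions were not analysed here.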

Additional observations from a re-analysis of the deposited data

Results flagged for a closer look

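In 8 of the genes reported, 1 of them among the 8 caspases and apoptosome genes and the others from the pathway lists, the only array pair of one line differed in the opposite direction from that of the other line, each by more than its scanner SD. With 1 array per condition, this difference was not tested. The share of all genes that meet the same rule was not counted, so the number says nothing particular about these genes.

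CASP9 had 0.50 (scanner SD 0.20) in HN4/DDP and -0.27 (0.20) in HN30/DDP. CFLAR had 1.77 (0.20) and -0.27 (0.20), with probes from -0.27 to 0.60 in HN30/DDP. FAS had 0.64 (0.20) and -1.44 (0.20). TNFSF10 had -1.24 (0.20) and 1.96 (0.20), with probes that disagreed in HN30/DDP. CASP14 had -0.91 (0.36) and 1.78 (0.32) at a low level. TNFRSF10A had 0.93 (0.20) and -0.86 (0.20), and NAIP, an inhibitor of the BIRC family, had -0.40 (0.22) and 0.69 (0.22), with probes from -0.31 to 2.21 in HN30/DDP. DFFA had 0.49 (0.075) and -0.073 (0.065). In HN30/DDP the sign of DFFA changed with quantile normalization (0.24) and that of CFLAR with the mean of its probes (0.33). The other genes named here kept their signs in both lines under the alternatives tried, but with normexp CASP14 (-0.28) and NAIP (-0.21) in HN4/DDP lay within their scanner SD.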

How the results depend on the processing

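The limma fit pairs the arrays by cell line. No paired analysis was possible by replicate number, because the labels give every condition only replicate 1. Leaving out an array leaves no residual degree of freedom. The median difference of the 8 genes ranged from -0.41 to -0.36 in HN4/DDP and from -1.06 to -0.50 in HN30/DDP, where median scaling gave -1.06. Lower genes in HN4/DDP numbered 2 (CASP8 and CYCS) with the mean of the probes and 0 at a threshold of 2. In HN30/DDP they numbered 1 (CYCS) with normexp, 4 with median scaling and 1 at a threshold of 2. The count of higher genes was 0 under all settings. Under median scaling limma called 273 genes, 222 of them higher and none of the 8, and under the other settings 0, with 2139 to 2921 genes at an unadjusted p below 0.05. The limma adjusted p of the 8 genes ranged from 0.352 (CYCS) to 0.998 (XIAP) over the settings. Of 112 alternative values of the 8 genes, 90 moved by less than the scanner SD and 22 by more. CASP10 ran from -0.998 to 0.036 in HN4/DDP, the latter with the mean of its probes. CASP2 and CASP6 changed sign between the parental lines, within the scanner SD. The cause of these shifts was not tested. Signal over background limits the dim CASP10 probe.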
